A study of Mus musculus with 2 samples.

Results

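The regions described here were 203 promoter peaks listed in the hypertensive retina (chronic ocular hypertension, COH) of mice that shared no base with any peak of the control list. They were 203 of the 694 COH peaks annotated as promoter (29.3%, exact Clopper-Pearson 95% interval 25.9 to 32.8%) and of 1711 COH peaks in all. The members were chosen by their measured positions, that is, by the presence of a peak in the COH list and the absence of an overlapping one among the 3078 control peaks, so the contrast between the conditions at these sites describes the choice and was not tested. Over COH peaks of every annotation class, 653 of 1711 shared no base with a control peak, which is 38.2%. Every member was assigned by the authors to a different gene, so the 203 peaks stood for 203 genes, of which 191 were matched to protein-coding genes, 5 to long noncoding RNAs, 3 to pseudogenes and 1 to a transcribed pseudogene. The other 3 had no match.

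The study profiled retinal nuclei with CUT&Tag and an antibody to Rac1, to find genes and transcription factors that Rac1 might be tied to. Both libraries came from wild type mice of the C57BL/6 strain, 7 weeks old. The control retina had no treatment, and the other came from eyes after 1 week of COH, a raised eye pressure that is used as a model of glaucoma. Each group had 1 library, amplified with 15 PCR cycles. How many mice or eyes each library holds is not given in the sources used here, and there is no replicate check on any difference between the lists.

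Rac1 is a small GTPase that switches between a GTP-bound active form and a GDP-bound inactive form and is best known for driving actin remodelling at the cell edge. It can also enter the nucleus, but it has no DNA-binding domain of its own. In CUT&Tag the antibody brings a transposase to chromatin, which cuts and tags the DNA nearby, and open promoters are easily cut. Many promoters of widely expressed genes lie in CpG islands, stretches rich in G, C and unmethylated CpG pairs, and hold GC boxes bound by Sp and Klf factors.

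The promoters of 8 member genes are printed first, to show the sequence types found at these sites. They are the 250 bases before the start in RefSeq on GRCm38.p6, 5′ to 3′ on the gene's strand, with capitals marking any of the 12 motifs searched. The build of the peak lists is not settled, so these positions cannot be laid over the peaks, and the window stands for the gene's reference promoter, not for the peak itself. All were taken from genes with exactly 1 entry. The genes were picked after their motifs had been seen. Coa7, a mitochondrial assembly factor for respiratory chain complexes, and Slc38a6, an amino acid transporter of the SNAT family, hold the cAMP response element TGACGTCA. Uhrf2, a reader of modified DNA and histones, and Scamp5, a synaptic vesicle membrane protein, hold CTCGCGAGA. Rab10, a vesicle GTPase, Klf7, a zinc finger factor of neurons, and Nr4a3, an orphan nuclear receptor induced by activity, hold the GC box GGGCGG or its complement. Wdr45, an autophagy factor that binds phosphoinositides, is shown as the exception with few CpG pairs.
Coa7 (chr4:108327902-108328151, plus strand): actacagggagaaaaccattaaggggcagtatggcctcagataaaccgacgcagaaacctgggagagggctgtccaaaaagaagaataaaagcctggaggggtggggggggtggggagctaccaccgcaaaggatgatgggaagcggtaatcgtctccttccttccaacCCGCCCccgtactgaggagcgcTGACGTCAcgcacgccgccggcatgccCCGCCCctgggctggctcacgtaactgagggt
Slc38a6 (chr12:73286598-73286847, plus strand): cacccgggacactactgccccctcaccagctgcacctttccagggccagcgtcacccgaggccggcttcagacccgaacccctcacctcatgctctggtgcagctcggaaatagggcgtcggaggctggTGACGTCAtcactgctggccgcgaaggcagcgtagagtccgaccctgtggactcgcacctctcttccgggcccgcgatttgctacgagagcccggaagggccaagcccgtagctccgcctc
Uhrf2 (chr19:30030263-30030512, plus strand): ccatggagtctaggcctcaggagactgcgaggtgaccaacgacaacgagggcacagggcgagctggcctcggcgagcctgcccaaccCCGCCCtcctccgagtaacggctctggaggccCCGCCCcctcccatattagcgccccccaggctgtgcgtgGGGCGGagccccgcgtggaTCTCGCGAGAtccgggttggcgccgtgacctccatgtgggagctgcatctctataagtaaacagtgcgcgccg
Scamp5 (chr9:57468061-57468310, minus strand): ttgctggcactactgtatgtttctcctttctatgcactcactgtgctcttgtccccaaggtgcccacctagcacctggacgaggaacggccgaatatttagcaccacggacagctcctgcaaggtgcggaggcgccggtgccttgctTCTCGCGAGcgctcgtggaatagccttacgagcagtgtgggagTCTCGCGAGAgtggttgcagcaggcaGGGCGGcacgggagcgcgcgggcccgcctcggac
Rab10 (chr12:3309970-3310219, minus strand): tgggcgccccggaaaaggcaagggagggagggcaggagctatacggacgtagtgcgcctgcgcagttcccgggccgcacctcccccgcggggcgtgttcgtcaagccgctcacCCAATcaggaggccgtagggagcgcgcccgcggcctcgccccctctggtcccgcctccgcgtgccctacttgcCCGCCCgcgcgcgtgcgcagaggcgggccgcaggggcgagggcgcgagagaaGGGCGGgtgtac
Klf7 (chr1:64121390-64121639, minus strand): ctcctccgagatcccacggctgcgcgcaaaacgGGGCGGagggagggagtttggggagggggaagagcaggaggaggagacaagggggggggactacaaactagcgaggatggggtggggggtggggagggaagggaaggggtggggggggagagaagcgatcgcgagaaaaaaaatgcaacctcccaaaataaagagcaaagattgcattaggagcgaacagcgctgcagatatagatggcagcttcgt
Nr4a3 (chr4:48045055-48045304, plus strand): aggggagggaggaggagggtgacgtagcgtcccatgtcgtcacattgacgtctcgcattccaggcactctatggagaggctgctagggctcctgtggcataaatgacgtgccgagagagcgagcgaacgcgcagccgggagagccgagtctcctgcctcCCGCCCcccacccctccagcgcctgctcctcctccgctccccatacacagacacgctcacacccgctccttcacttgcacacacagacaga
Wdr45 (chrX:7722677-7722926, plus strand): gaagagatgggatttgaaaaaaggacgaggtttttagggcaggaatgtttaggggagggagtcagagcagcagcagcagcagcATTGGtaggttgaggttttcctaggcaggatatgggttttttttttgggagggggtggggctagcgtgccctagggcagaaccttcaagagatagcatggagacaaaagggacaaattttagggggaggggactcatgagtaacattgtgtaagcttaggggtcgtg

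Of the 191 protein-coding member genes, 155 had an entry in the RefSeq promoter table and 129 had exactly 1, and the sequence counts rest on those 129. Each window ran from 250 bases before the start to 50 after it. The members' windows had a median GC content of 64.7% (order-statistic 95% interval 62.7 to 66%), against 55.7% over 14731 protein-coding genes with 1 entry. They held a median of 24 CpG pairs per 300 bases, against 13. The ratio of observed to expected CpG reached 0.6, a usual limit for CpG islands, in 107 of 129 (82.9%, exact interval 75.3 to 89%) and in 47.2% of all the genes. The member promoters were thus GC-rich and mostly of the CpG island type.

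The GC box GGGCGG, searched on both strands as all motifs were, was present in 96 of 129 member promoters (74.4%, 66 to 81.7%) and in 45.3% of all protein-coding promoters. In the genes of COH promoter peaks that were shared with control it was present in 260 of 295 (88.1%, 83.9 to 91.6%), and their median GC content was 68.7%. The members thus lay below the shared peaks in GC boxes and GC content, although above promoters in general. This gap was not particular to the COH list. Promoters of genes whose peak was listed only in control held the GC box in 479 of 595 (80.5%, 77.1 to 83.6%) with a median GC of 65.7%, an interval that overlaps that of the members. A further comparison took genes whose peaks had a fold enrichment of 4.46 to 5.68, the range of the middle members. There the GC box was in 47 of 62 member promoters (75.8%, 63.3 to 85.8%). Among shared peaks of that fold it was in 99 of 112 (88.4%, 81 to 93.7%). The members thus again lay below the shared peaks, although the wider intervals of these smaller sets overlapped. The control-only and fold-limited sets were added after the first motif counts had been seen.

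**Figure D1:**
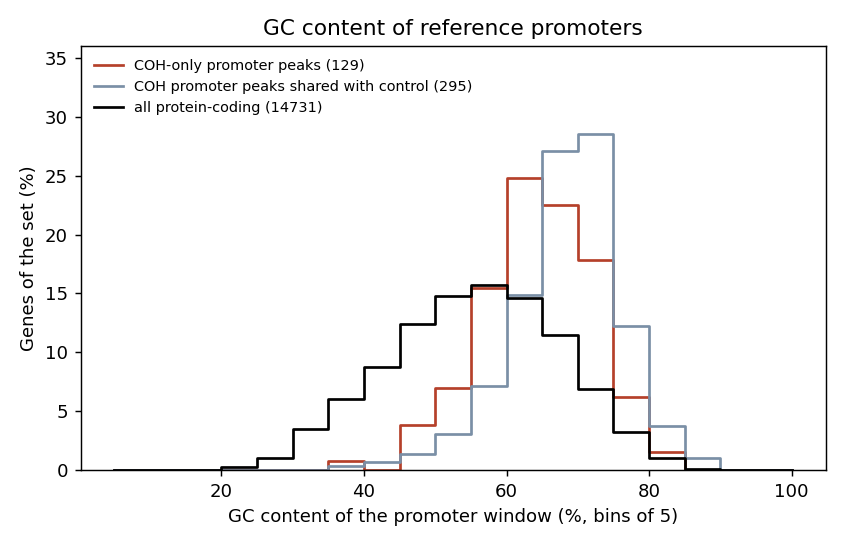
Share of genes, in percent, by GC content of the reference promoter window in bins of 5 percentage points, for 129 genes of COH-only promoter peaks, 295 genes of COH promoter peaks shared with control and 14731 protein-coding genes. Both COH sets lie to the right of all genes, and the COH-only set, with a median of 64.7%, lies to the left of the shared set, with a median of 68.7%.

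The other motifs were less frequent, and their intervals were wide. The CCAAT box was in 50 of 129 member promoters (38.8%, 30.3 to 47.7%), close to the 39.6% of all promoters. The TATA box TATAAA was in 8 (6.2%, 2.72 to 11.9%), against 14.3% of all. The E-box CACGTG, bound by bHLH factors such as those of the clock, was in 20 (15.5%, 9.73 to 22.9%), against 7.72% of all and 12.2% of shared peaks. The cAMP response element TGACGTCA was in 7 (5.43%, 2.21 to 10.9%), namely Coa7, Ankrd13c, Atg5, Slc38a6, Dguok, Btaf1 and Htt, against 2.29% of all, 2.71% of shared peaks and 4.2% of control-only peaks. The motif CTCGCGAGA was in 6 (4.65%, 1.73 to 9.85%), namely Atraid, Uhrf2, Zkscan2, Scamp5, Wdr77 and Ofd1, against 1.01% of all and 3.39% of shared peaks. These names were chosen after the motifs had been seen. In control-only promoters the CCAAT box was in 45.2%, TATAAA in 3.03%, CACGTG in 8.24% (6.15 to 10.7%) and CTCGCGAGA in 1.51% (0.694 to 2.85%). In each motif of this paragraph the interval of the members overlapped those of the shared and the control-only promoters. Among the 62 members of fold 4.46 to 5.68, CACGTG was in 9.68% (3.63 to 19.9%) and TGACGTCA in 3.23% (0.393 to 11.2%), both nearer to all promoters. There CTCGCGAGA was in 4.84%, TATAAA in 6.45% and CCAAT in 37.1%, close to the values of all members.

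Among the remaining motifs, AAGATGG, the core of the YY1 site, was in 15 of 129 (11.6%, 6.66 to 18.5%) and CGGAAGT, a core of ETS sites, in 14 (10.9%, 6.06 to 17.5%), against 6.49% and 8.51% of all promoters. AAGATGG was in 6.44% of shared and 8.57% of control-only promoters, and CGGAAGT in 11.2% and 14.5%. TGACGCA was in 8 (6.2%), against 2.67% of all, 7.46% of shared and 5.21% of control-only promoters. GCGCATGC, part of the NRF1 site, was in 7 (5.43%), against 3.53% of all, 6.78% of shared and 7.06% of control-only promoters. TGCGCATGC, which contains it, was in 5 (3.88%), against 2%, 4.07% and 4.87%. The AP-1 site TGANTCA was in 5 (3.88%), against 7.09%, 1.36% and 3.03%. The members' intervals overlapped those of the shared and the control-only promoters for each of these motifs. A second gene that started within 1000 bp on the opposite strand was annotated for 19 of the 129 (14.7%, 9.11 to 22%), for 10.8% of shared, 17.1% of control-only and 7.89% of all genes. Among the 62 members of middle fold, AAGATGG was in 4.84% (1.01 to 13.5%), under the 6.49% of all promoters. An opposite start was annotated for 8.06% (2.67 to 17.8%) of them, near the 7.89% of all genes. In that set CGGAAGT was in 11.3%, TGACGCA in 6.45%, GCGCATGC in 3.23%, TGCGCATGC in 1.61% and TGANTCA in 3.23%. A match of letters describes these windows and shows no factor bound.

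The member peaks sat on the start sites of their genes. In the authors' annotation 197 of 203 lay within 1 kb of a start, 3 at 1 to 2 kb and 3 at 2 to 3 kb. The peak covered the start in 154 (75.9%, 69.4 to 81.6%), lay 1 to 250 bp upstream in 33 and farther upstream, up to 1000 bp, in 10. The 6 members over 1000 bp upstream belonged to Rnase2a, Lrrc31, Gm18839, P2ry6, Zbtb9 and Gm11400, named after their positions had been seen. The summit was 56 bp upstream of the start at the median, with quartiles at 220 bp upstream and 78 bp downstream. In COH promoter peaks shared with control, the peak covered the start in 75.2% (71.1 to 78.9%) and the median summit was 88 bp upstream, and the intervals of both sets overlapped.

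The members were weak peaks of the COH list. The fold enrichment, the authors' ratio of the peak over background, had a median of 4.99 in the members (95% interval 4.85 to 5.15, range 3.18 to 9.40). The shared COH promoter peaks had a median of 5.69 (5.52 to 5.83). The pileup, the authors' read coverage at the summit with no stated scaling, had a median of 15 and a range of 8 to 38 in the members and a median of 18 in the shared peaks. The members' median -log10 q, the caller's score of confidence, was 4.51, against 7.05. Their median length was 382 bp, against 467 bp.

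**Figure D2:**
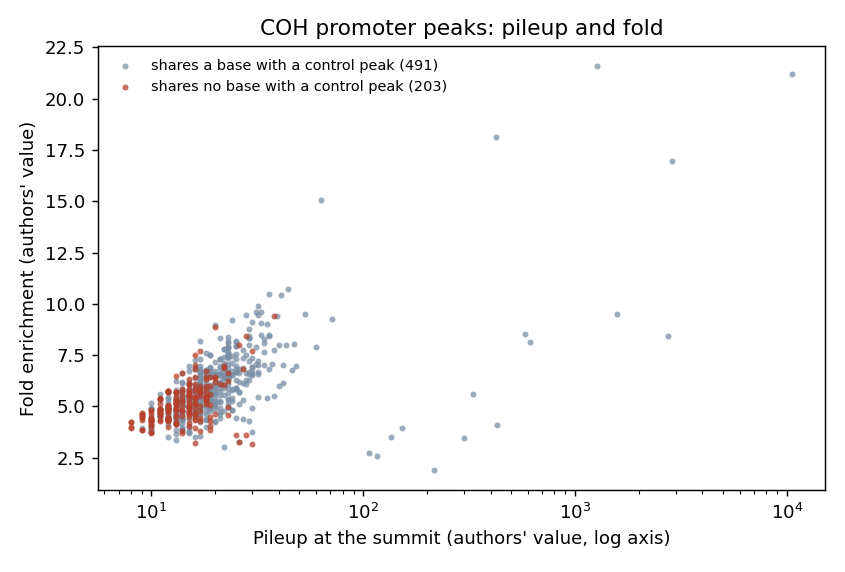
Fold enrichment against pileup at the summit (log axis) for the 694 COH promoter peaks, both as deposited by the authors, with 203 peaks that share no base with a control peak in red and 491 that do in grey-blue. The red points lie at pileups of 8 to 38 and folds of 3.18 to 9.40, and the points far to the right, at higher pileups, are all of the shared set.

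The same was seen by rank. When the COH promoter peaks were split by fold into 5 bins of equal size, 46.8% of the weakest bin shared no base with a control peak, and the share was 35.5%, 32.4% and 22.5% in the following bins and 9.29% in the strongest. Only 9 members were among the 100 strongest COH promoter peaks, and 136 were at or under the median fold of the whole COH list. A -log10 q of at least 5 was reached by 86 members. The control list started at a -log10 q of 2.0 and the COH list at 1.82, and 6 members lay below the lowest control value. The lists hold no signal at sites without a peak, so how much signal the control library had at the members was not analysed here. Promoter peaks listed only in control had like listed values, with a median fold of 5.05 and a median pileup of 17 over 935 peaks.

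**Figure D3:**
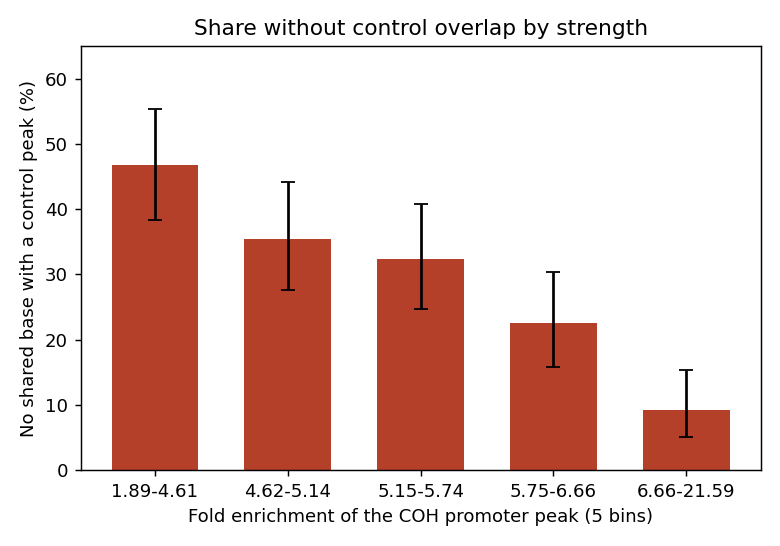
Share of COH promoter peaks, in percent, that share no base with a control peak, in 5 bins of equal size by fold enrichment. Bars are shares and whiskers are exact 95% intervals for counting error, and the share falls from 46.8% in the weakest bin to 9.29% in the strongest.

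Within the COH list the promoter class had a lower share without overlap than the other large classes. The share was 29.3% for promoters, 40.4% (33.5 to 47.6%) for 5' UTR peaks, 42.5% (37.9 to 47.1%) for distal intergenic peaks and 46.8% (40.8 to 52.8%) for intron peaks. Among COH peaks with folds of 4.46 to 5.68 it was 35.3% (29.8 to 41.2%) for promoters, 46.8% (36.4 to 57.4%) for 5' UTR, 70.5% (61.9 to 78.1%) for distal intergenic and 67% (57 to 75.9%) for intron peaks, so the promoter and 5' UTR intervals overlapped there. These shares use the contrast that chose the members and are given as a description. In the other direction, 935 of 1445 control promoter peaks (64.7%) had no COH overlap, in a list of 3078 peaks against 1711.

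The 15 members of highest fold covered a mix of cell functions. The strongest was the peak at Sbno1, a helicase-like regulator of transcription, with a fold of 9.40 and a pileup of 38. Its peak lay at chr5:124563449-124564122 in the lists' coordinates and covered the start, and the nearest control peak was 97248 bp away. Wdr45 followed with a fold of 8.85 and a pileup of 20. Smg6, the endonuclease of nonsense-mediated mRNA decay, had a fold of 8.41 and a pileup of 28. Coa7 had a fold of 8.0 and Ddx31, a nucleolar RNA helicase, 7.72. B4galt5, a galactosyltransferase that makes lactosylceramide, had a fold of 7.68 and Commd10, of the COMMD family that works with the retriever in endosomal recycling, 7.48. These 7 ranked among the strongest members but within the range of the shared peaks, which reached a fold of 21.59.

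The other 8 of this group had folds of 6.61 to 6.99. They were Ppp1r2, an inhibitor of protein phosphatase 1, the noncoding Ube2d-ps, the phosphatase Cpped1, the stress granule protein Atxn2l, the phenylalanine tRNA synthetase subunit Farsb, Rap1gds1, the complex III subunit Uqcrc1 and Nt5dc3. Rap1gds1, also called SmgGDS, binds small GTPases and aids their prenylation and exchange. Its peak had a fold of 6.74 and a pileup of 18.

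The 5 members of lowest fold were Gm7807 at 3.18, Amh at 3.19, Fcgr3 at 3.25, and Gm11400 and Mbd6 at 3.61. Their pileups were 30, 16, 26, 28 and 25, so 4 of the 5 had a pileup well above the members' median of 15 although their fold was low. Gm7807 and Gm11400 are pseudogenes. Near Gm11400 the COH list held 5 further peaks assigned to the same gene, 4 of them in introns or exons of Sfi1 in the authors' annotation, and the control list held 3.

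The absence of a control peak held for the peaks as listed but not always for the neighbourhood. Of the 203 members 10 lay within 200 bp of a control peak and 13 within 1000 bp (6.4%, 3.45 to 10.7%). A further 6 lay within 10000 bp, 59 (29.1%) lay over 10000 and up to 100000 bp away, and 125 lay over 100000 bp away, 16 of them over 1000000 bp.

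**Figure D4:**
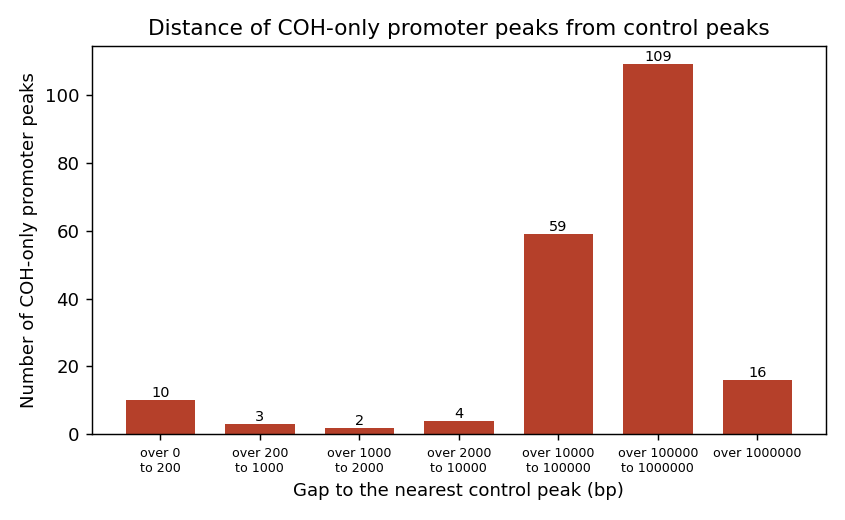
Number of COH-only promoter peaks by the gap, in bp, to the nearest control peak. The bars show 10 members within 200 bp, 59 over 10000 and up to 100000 bp, 109 over 100000 and up to 1000000 bp and 16 beyond.

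The smallest gap was at Krcc1, where the COH peak ended 8 bp before a control peak in the 5' UTR of the same gene. The COH peak had a fold of 4.48 and the control peak 4.94. The next were 2510009E07Rik at 80 bp, Gpr137c at 89 bp, Megf9 at 90 bp and Gm28635 at 109 bp. The control peak was assigned to the neighbouring gene in Gpr137c, where it was the promoter of Txndc16, and in Gm28635, where it was the promoter of Med19. Srsf1, a core splicing factor, had a gap of 146 bp, and the translation factor Eif5 one of 189 bp. At Eif5 the COH peak had a pileup of 17 and a fold of 5.72, and the control peak in the 5' UTR had 25 and 5.92. Read depth is unknown and the pileup has no stated scaling, so these values do not rank the peaks across libraries.

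Of the 13 members within 1000 bp, 10 were beside a control peak of their own gene and 3 beside one of a neighbour, the third being Fgd6 beside Vezt at 196 bp. Of the 13 control peaks, that at Kmt2e shared 391 bp with another COH peak, and the other 12 touched no COH peak. At these starts both libraries thus had a peak, at most 959 bp apart. The peaks just outside the rule had overlaps as small, with 3 bp shared at Bhlhb9, 8 bp at Mybl1, 18 bp at Etf1, 27 bp at Ube2g1 and 43 bp at Sik3. Their COH folds ran from 3.85 to 5.69, within the range of the members.

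The 10 longest gaps were 1264122 to 4633899 bp, the longest at Ctnna2, an alpha-catenin of neurons, with a fold of 4.50. The others were Gxylt1, Tmem185a, Col11a1, Dsel, Ablim1, Mbd2, Katnbl1, Eif3d and Adprm. Their pileups ran from 8 to 16 and their folds from 3.82 at Ablim1 to 5.71 at Dsel, which lies above the members' upper quartile of 5.68.

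In all, 19 of the 203 member genes had a control peak elsewhere (9.36%, 5.73 to 14.2%). Among protein-coding genes this was 17 of 191 (8.9%, 5.27 to 13.9%), while a control peak of any class was assigned to 10.8% of the 21900 protein-coding genes. That background also counts control peaks at the start, which the rule removes from the members where they overlap, so these shares are not alike. Of 490 genes of shared COH promoter peaks, 26 (5.31%, 3.5 to 7.68%) had a second control peak that did not touch the COH peak. This interval overlaps that of the members, and the share of 9.36% is not a result about the members. Most of these control peaks were close by, and only 7 of 191 genes (3.66%) had one over 1000 bp from the member.

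The genes with a control promoter peak of their own were 3, Thrap3, Kmt2e and Nr4a3. Nr4a3 had a COH peak within 1 kb before the start, at a fold of 4.72 and a pileup of 15, and a control peak 1928 bp before it, at a fold of 4.92 and a pileup of 25. Thrap3, a splicing and transcription cofactor, had its COH peak 217 bp upstream at a fold of 4.47 and a control peak over the start at 5.22. Kmt2e, a chromatin protein with a SET domain, had its COH peak 162 bp upstream at a fold of 4.41 and a control peak 651 bp upstream at 5.53. In these 3 genes the control peak had a higher listed fold than the member peak, across libraries of unknown read depth. Kmt2e also had a second COH promoter peak, at a fold of 7.90 and a pileup of 31. That peak shared 391 bp with the control peak of Kmt2e and had the higher fold of the pair.

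Another 6 genes had control peaks in the 5' UTR within 1000 bp, namely Rap1gds1, Gid4, Eif5, 2510009E07Rik, Srsf1 and Krcc1. Cpeb2 and Megf9, with first-exon peaks, were within 1000 bp as well. Farther away were control peaks in introns of Msi2, an RNA-binding protein of stem cells, at 28449 and 41333 bp, and downstream of Bhlhe41, a repressor of the clock, at 9430 bp. Ctnna3, Csgalnact1 and Chd4 had a distant control peak that overlapped a second COH peak of the same gene, so for them the libraries shared a distal site while the promoter peak was listed in COH alone. At Ctnna3 that intron site had a fold of 7.99 in COH and 9.49 in control, both above the 4.79 of the promoter peak. Only 5 member genes had another COH peak, those 3 with Kmt2e and Gm11400.

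By function, the members were spread over many groups. Of the 191 protein-coding genes 112 fell in at least 1 of 37 functional lists, and 35 of 39 lists, counting 2 defined by symbol alone, had at least 1 member. Over all 21900 protein-coding genes 191 had a COH-only promoter peak, which is 0.872%. The same share was 2.09% for shared COH promoter peaks and 6.3% for control promoter peaks. The lists match symbol patterns, so some genes are misplaced. Nt5dc3 is counted in central metabolism and the centrosomal Cdk5rap2 in kinases, while Farsb, Coa7, Rap1gds1 and the DNA repair kinase Prkdc are in no list.

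Chromatin regulators had 9 of 356 genes (2.53%, exact interval 1.16 to 4.74%). They were the methyl-CpG domain genes Mbd5 with a fold of 6.10, Mbd2 with 5.40 and Mbd6 with 3.61, together with Uhrf2, the DNA-bending Hmgb2, Kmt2e, the Polycomb gene Phc2, the SWI/SNF subunit Smarcd2 and the NuRD ATPase Chd4. Only Mbd5 lay above the median fold of the COH list. The chromatin list also had 28 genes (7.87%) with a shared COH promoter peak and 65 (18.3%) with a control promoter peak, against 2.09% and 6.3% of all genes, so its share was above that of all genes for each kind of peak.

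Membrane trafficking had 11 of 586 genes (1.88%, 0.941 to 3.33%). The first 8 by fold were Commd10, the phosphoinositide phosphatase Mtmr6 at 6.11, the retriever subunit Vps26c at 5.77, the lipid transfer protein Vps13c at 5.54, the Rab exchange factor Dennd5a at 5.46, Rab10 at 5.45, Vps13d at 4.87 and the Arf exchange factor Arfgef2 at 4.86. The other 3, Sec61a2, Stx16 and Vps37a, complete the count. Of the 586 genes, 15 (2.56%) had a shared COH promoter peak, against 2.09% of all genes, and 73 (12.5%) a control promoter peak, against 6.3%, so the list was above all genes for control peaks as well.

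Splicing and RNA-binding proteins had 8 of 450 (1.78%, 0.771 to 3.47%). Smg6 and Ddx31 led, followed by Pcbp2 at 6.04, Ccar1 at 6.01, Cpeb2 at 5.59, Msi2 at 5.47, Srsf1 at 5.34 and Thrap3 at 4.47. Of these 8 genes, 4 had a control peak elsewhere, Cpeb2, Msi2, Srsf1 and Thrap3, against 8.9% of all protein-coding members. The control peaks of Srsf1, Thrap3 and Cpeb2 lay only 146, 203 and 959 bp from the member, and those of Msi2 lay far off. With 8 genes the contrast is a description only. The list also had 27 genes (6%) with a shared COH promoter peak and 76 (16.9%) with a control one, against 2.09% and 6.3% of all genes. Translation had 4 of 228 (1.75%, 0.48 to 4.43%), the initiation factor genes Eif3j1, Eif5 and Eif3d and the stress kinase gene Eif2ak3, which encodes PERK.

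**Figure D5:**
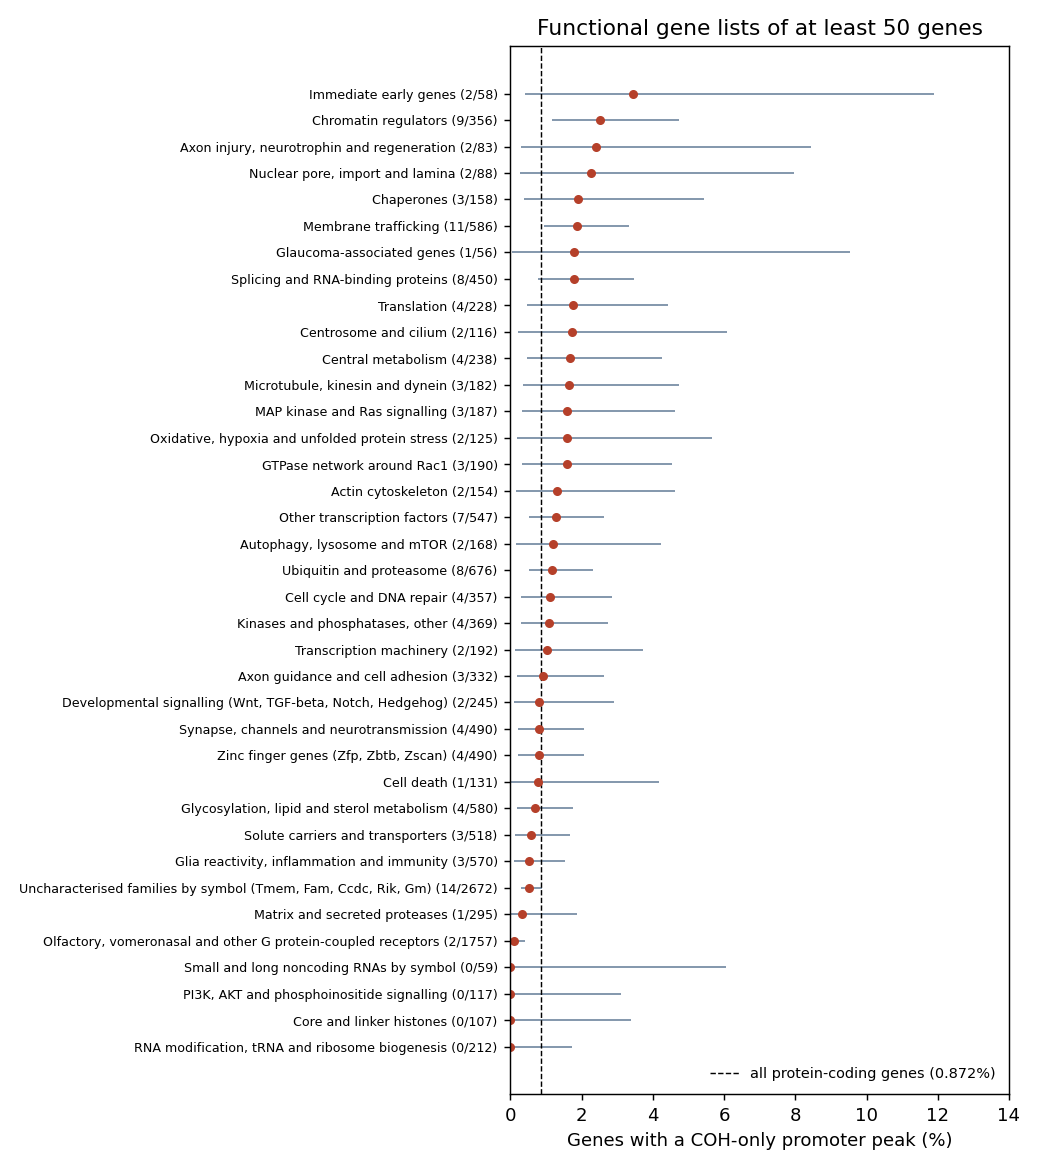
Share of genes, in percent, with a COH-only promoter peak in functional lists of at least 50 protein-coding genes, with counts beside the names. Points are shares, lines are exact 95% intervals for counting error and the dashed line is the 0.872% of all protein-coding genes, which lies within most of the intervals.

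The GTPase network around Rac1, the antibody's target, had 3 of 190 genes (1.58%, 0.327 to 4.54%), an interval that covers the background. Fgd6, an exchange factor for Cdc42, had a fold of 5.86 and a pileup of 14. Rock1, a kinase that contracts actomyosin, had a fold of 4.63 and a pileup of 10. Elmo2, which works with DOCK proteins to activate Rac1, had a fold of 4.54 and a pileup of 14. The same list had 7 genes (3.68%) with a shared COH promoter peak and 22 (11.6%) with a control one. The actin list added 2 of 154 genes, the nonmuscle myosin Myh9 at 5.11 and Ablim1 at 3.82, and the microtubule list 3 of 182, Hook2, Katnbl1 and the kinesin light chain Klc4.

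Transcription factors other than the Zfp, Zbtb and Zscan genes had 7 of 547 genes (1.28%, 0.516 to 2.62%). These were Klf3 at 5.17, Klf7 at 5.03, Bhlhe41 at 4.96, Nr4a3 at 4.72, Klf10 at 4.58, the sterol regulator Srebf2 at 4.32 and Klf16 at 4.30. None of the 7 lay above the median fold of the COH list. Nr4a3 and Klf10 are also immediate early genes, 2 of 58 in that list (3.45%, 0.42 to 11.9%), an interval that covers the background. The immediate early list also had 2 genes (3.45%) with a shared COH promoter peak and 9 (15.5%) with a control one. The clock list had 1 of 27, Bhlhe41, while 7 of 27 had a shared COH promoter peak and 10 of 27 a control one.

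Among mitochondrial genes, the complex III gene Uqcrc1 had a fold of 6.64, Mtrf1l 6.43, the calcium uniporter Mcu 4.80, Mrps35 4.60 and Atp5g3 4.37. Ubiquitin and proteasome genes had 8 of 676 (1.18%, 0.512 to 2.32%), namely Marchf11, Usp3, Usp15, Fbxo11, Kctd21, Ube2q1, Fbxl17 and Psma3. Autophagy had Wdr45 and Atg5, 2 of 168 (1.19%, 0.144 to 4.23%). Chaperones had Dnajc11, Hsp90ab1 and Hspa4l, 3 of 158 (1.9%, 0.393 to 5.45%). The intervals of the ubiquitin, autophagy and chaperone lists cover the 0.872% of all protein-coding genes. Shared COH promoter peaks were at 5.47%, 2.38% and 5.7% of these lists, against 2.09% of all genes. Control promoter peaks were at 12.9%, 7.74% and 10.1%, against 6.3%.

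Lists tied to injured neurons and glia had shares whose intervals covered the background. The axon injury and regeneration list had 2 of 83 (2.41%, 0.293 to 8.43%), Klf7 and Rock1, and synapse and channel genes had 4 of 490 (0.816%, 0.223 to 2.08%), Clcn6, the glutamate receptor Grm3, Nrxn2 and P2ry6. Inflammation and glial reactivity had 3 of 570 (0.526%, 0.109 to 1.53%), the NF-kappaB inhibitor Nfkbia at 5.44, Jak2 at 5.08 and Fcgr3 at 3.25. Glaucoma-associated genes had 1 of 56 (1.79%, 0.0452 to 9.55%), Col11a1 at 4.54. Olfactory and other G protein-coupled receptors had 2 of 1757 (0.114%, 0.0138 to 0.411%), an interval below the background. That list was also low for shared COH promoter peaks (0.171%, against 2.09% of all genes) and control ones (0.74%, against 6.3%). Histones, with 0 of 107, and genes for RNA modification, tRNA and ribosome biogenesis, with 0 of 212, had no member, which allows shares of up to 3.39% and 1.72% by the exact intervals.

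Markers of retinal cell types were not among the member genes in the lists given here. The counts were 0 of 11 ganglion cell markers, 0 of 8 bipolar, 0 of 8 amacrine, 0 of 4 horizontal and 0 of 7 Muller glia markers. None of these had a shared COH promoter peak either. In control, 2 of 7 Muller glia markers had a promoter peak and the markers of the other 4 types none, so the promoter peaks give no check on the retinal identity of the nuclei.

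Among the autosomes and chromosome X, the share of COH promoter peaks without control overlap ran from 2 of 21 on chromosome 13 to 6 of 10 on chromosome X. The mitochondrial genome had 0 of 3. Chromosome 2 had 20 of 44 and chromosome 9 had 5 of 39. The smaller counts leave wide intervals, and no chromosome was tested.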

How the data were processed

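CUT&Tag with a Rac1 antibody was run on 1 control and 1 COH retina library. Adapter trimming with cutadapt 1.9.1, alignment with Bowtie2 and the build mm9 are named in the submitters' processing notes, with no role or order. No label names the peak caller, its settings or any background library (not given in the sources used here). The pileup signal, the fold enrichment ratio and each peak's values of -log10 p and -log10 q were deposited by the authors and were used only to describe, rank or filter peaks. The headings of both -log10 columns were damaged, so they were read from their place. The other values, positions, lengths, distances, annotation classes and genes, are as deposited by the authors, per the file headers. Read depth is unknown. Gene starts in the COH list were at most 100 bp from the GRCm38.p6 starts in 17 of 954 genes, so the build of the coordinates is not settled and nothing was converted.

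Peaks were taken as called per library and overlapped if they shared at least 1 bp, with Python 3.11.15, pandas 2.3.3, numpy 2.4.6 and scipy 1.17.1, and figures were drawn with matplotlib 3.10.9. The overlap step was tested on 1500 simulated peaks, where it recovered 500 of 500 planted overlaps and called 0 of 1000 others. The simulated shifts left out the smallest overlaps and gaps, so peaks that barely touch or barely miss were not covered. With 1 library per group no test between conditions was made. Shares have exact Clopper-Pearson 95% intervals and medians have order-statistic intervals. Both cover counting error over peaks or genes only, since the peaks of 1 library are not replicates of a condition. PCR copies cannot be told from separate molecules here. Symbols of 200 of 203 members matched the RefSeq table of GRCm38.p6, by name or unique synonym.

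The members and gene lists were chosen with earlier results of these data known. Named genes were the 15 members of highest and 5 of lowest fold, the 5 with the smallest and 10 with the longest gaps, the 5 smallest overlaps outside the rule, up to 15 genes with a control peak elsewhere, up to 8 per list, and genes with several members, of which there were none. Genes named beyond these complete a count or were chosen after their values were seen. The CpG limit, the limit for opposite starts and the motifs were set after the files had been opened. Results for 1 gene and for some lists are not reported here.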

Additional observations from a re-analysis of the deposited data

How the results depend on the processing

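With only COH peaks of a -log10 q of at least 5, the members were 86 (19.4% of COH promoter peaks), their median fold was 5.75, the share without overlap in the weakest of the 5 fold bins was 20.2%, genes with a control peak elsewhere were 9, genes in a functional list 54 and members within 1000 bp of a control peak 6. With only control peaks of that -log10 q, the share was 39.9%, the weakest bin 61.2%, and the last counts 12 genes elsewhere and 5 members within 1000 bp. With as many of the strongest control peaks as the COH list holds, the members were 352 (50.7%), the weakest bin 78.4%, genes elsewhere 12, listed genes 202 and members within 1000 bp 7. With a reciprocal overlap of 50% needed, the share was 43.1%, the weakest bin 59.7%, genes elsewhere 109, listed genes 172 and members within 1000 bp 109. Under that setting the members include peaks that partly overlap a control peak. Such control peaks enter both counts of 109, which therefore rise by definition and do not mean separate sites. With a control peak within 1000 bp counted as shared, genes elsewhere were 9. Listed genes were 39 with members above the median fold only and 172 with promoters defined as peaks within 1000 bp of a start. The causes of the other changes were not tested. The other 33 of 58 values stayed within their interval or within 1.5 times, and the median observed over expected CpG of 0.811 ranged from 0.787 to 0.832. Within that wide limit the members, 203 in the main setting, ran from 190 with control peaks within 1000 bp counted as shared to 299 with the reciprocal overlap. They were 277 with only control peaks of a -log10 q of at least 5 and 285 with promoters set by distance. Listed genes, 112 in the main setting, ran from 102 to 156 within it. The alternatives for the weakest bin and the members within 1000 bp, and most of those for listed genes and CpG, were chosen after seeing the data. No paired analysis was possible because each group has 1 library and no result comes from a test. Read depth is unknown, so which peaks sequencing depth kept from the control list was not analysed here.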
